A study of Mus musculus with 3 samples.

Results

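Rasgrf1 and Htr1d are genes with very low and very high ratios between the 3' libraries of L929 cells, an established mouse fibroblast line. They were chosen by that measured ratio, 1 gene for each direction, so the ratio is given below as a description. They are 2 of 55402 genes listed in the 3' tables, of which 2825 reached a mean of 50 CPM (counts scaled to a library total of 1000000) over the libraries. The question asked of them here is whether CBTi-seq, a second assay of the same cell line, shows either gene.

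The series set Rrm2-knockdown cells beside control cells; Rrm2 encodes part of the enzyme that makes deoxyribonucleotides. CBTi-seq was run on each kind, as was a method directed at the 3' ends of transcripts. There were 3 samples: the 3' library labelled knock (8 columns), the 3' library labelled control (8 columns), and 1 CBTi-seq sample of 10 columns named knock and 10 named control. The labels' protocol tells of single cells drawn into wells with a capillary and of cDNA primed with oligo dT. It does not say what 1 column holds, whether columns come from separate cultures, or how Rrm2 was knocked down. Every group therefore counted as 1 sample, no difference was tested, and all 95% intervals cover counting error only.

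RASGRF1 is an exchange factor that loads Ras, and also Rac, with GTP, and it responds to calcium through calmodulin. It is known from neurons and pancreatic islets, and in mice the gene is imprinted, with the paternal copy active in the brain. Htr1d encodes a receptor for serotonin that couples to inhibitory G proteins and lowers cyclic AMP. It is known from neurons, where it sits on nerve endings and is a target of the triptan drugs. Neither gene belongs to the usual markers of fibroblasts.

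On the plus strand of chromosome 9 (GRCm38), Rasgrf1 (ENSMUSG00000032356) runs between bases 89909908 and 90026977, a span of 117070 bases, and its transcript with the most exons has 27. Htr1d (ENSMUSG00000070687) runs between bases 136423524 and 136444398 of chromosome 4, also on the plus strand, a span of 20875 bases, with at most 3 exons in a transcript. No gene of the GENCODE annotation overlaps either of them on either strand. The longest run of A in an annotated transcript was 7 bases for Rasgrf1 and 6 for Htr1d. Only annotated transcripts were searched, so runs of A in introns were not looked at. Of 2610 coding genes at 50 CPM or more, 55.0% had a run as long as that of Rasgrf1, and 70.9% one as long as that of Htr1d.

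The sequences around the annotated starts are shown because they differ in how rich in CG they are. Each window runs from 250 bases before a RefSeq start (GRCm38.p6, plus strand) to 50 bases after it, and capitals mark each CG.
Rasgrf1, chr9:89909525-89909824: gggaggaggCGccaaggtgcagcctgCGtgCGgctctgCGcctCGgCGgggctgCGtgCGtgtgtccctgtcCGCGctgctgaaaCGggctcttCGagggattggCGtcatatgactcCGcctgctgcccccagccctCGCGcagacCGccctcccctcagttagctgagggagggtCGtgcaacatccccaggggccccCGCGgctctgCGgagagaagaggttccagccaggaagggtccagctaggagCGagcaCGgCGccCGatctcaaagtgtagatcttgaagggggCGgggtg
Htr1d, first start, chr4:136423274-136423573: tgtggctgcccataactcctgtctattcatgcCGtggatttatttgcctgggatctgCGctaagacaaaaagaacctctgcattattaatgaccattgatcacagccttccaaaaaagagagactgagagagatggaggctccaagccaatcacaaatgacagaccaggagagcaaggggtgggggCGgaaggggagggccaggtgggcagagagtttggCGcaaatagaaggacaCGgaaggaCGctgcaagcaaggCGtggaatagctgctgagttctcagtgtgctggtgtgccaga
Htr1d, second start, chr4:136424362-136424661: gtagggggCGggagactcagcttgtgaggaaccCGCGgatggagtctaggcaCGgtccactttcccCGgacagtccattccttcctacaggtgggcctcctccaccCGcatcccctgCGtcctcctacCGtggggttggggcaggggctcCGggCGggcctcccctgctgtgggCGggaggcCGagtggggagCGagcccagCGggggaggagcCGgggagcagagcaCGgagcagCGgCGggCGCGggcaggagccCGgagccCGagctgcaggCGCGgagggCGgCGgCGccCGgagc

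The Rasgrf1 window held 26 CG, a number reached by 16.9% of the 32851 RefSeq windows. Its start lies 133 bases before the first GENCODE exon of the gene. The first Htr1d window held 7 CG, a number that 52.1% of windows reached. The second Htr1d start lies at an annotated exon start within the gene, and its window held 28 CG, reached by 14.2%. On either strand, the letters TTTGGCGC, a form of the site read by E2F factors of the cell cycle, stood once in the first Htr1d window, beginning 35 bases before the start, and in neither of the other windows. They were in 0.514% of all windows. The letters TTTCCCGC, TGACTCA (AP-1), TGACGTCA (CREB) and TATAAA stood in none of these windows. GGGCGG (Sp1) stood in all of them, as in 35.7% of all windows. None of the assays measured binding or methylation there.

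Summed over columns, Rrm2 went with the labels in CBTi-seq and against them in the 3' libraries. It was at 350.1 CPM in the CBTi-seq knock columns and 480.9 CPM in the control columns (log2 ratio -0.46, -0.56 to -0.35). Single columns overlapped there, at 283 to 489 CPM for knock and 356 to 652 CPM for control. Rrm2 was at 148.1 CPM in the 3' library labelled knock and 39.1 CPM in the one labelled control (1.92, 1.74 to 2.12). Its 3' columns were at 123 to 173 CPM labelled knock and 29.2 to 49.6 CPM labelled control. The 3' libraries are thus called by their labels throughout, and every 3' direction rests on labels that Rrm2 goes against. The columns held 814960 to 1973137 counts in the 3' library labelled knock and 399393 to 2496457 in the one labelled control. They held 153051 to 735871 counts in the CBTi-seq knock columns and 41570 to 846819 in the control columns.

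Rasgrf1 was lower in the 3' library labelled knock, in every column. Its level there was 69.2, 60.1, 53.1, 51.9, 65.9, 77.5, 106.3 and 60.6 CPM in columns 1 to 8. In the library labelled control the columns were at 1585, 1875, 1264, 1470, 1377, 1531, 1698 and 1569 CPM. The lowest control column was 11.9-fold above the highest knock column, which was column 7, so the libraries were far from overlapping. Summed over columns, the level was 67.0 CPM (95% interval 61.8 to 72.5, from 614 counts) in the library labelled knock. It was 1645 CPM (1615 to 1675, from 11626 counts) in the library labelled control. The log2 ratio of knock over control was -4.62 (-4.74 to -4.50), which puts the knock level 24.5-fold below the control level (22.6 to 26.7).

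Htr1d stood the other way round. Its level was 343.1, 315.4, 324.2, 273.1, 307.1, 250.7, 266.8 and 248.9 CPM in columns 1 to 8 of the library labelled knock. In the library labelled control it was 0, 4.01, 2.50, 1.89, 4.68, 7.31, 7.29 and 4.96 CPM. The control column at 0 had 890228 counts in all, of which 3 would make 3.37 CPM. No control column came near the knock columns. Summed, the level was 292.7 CPM (281.7 to 304.0, from 2682 counts) in the library labelled knock and 4.10 CPM (2.75 to 5.89, from 29 counts) in the one labelled control. The log2 ratio was 6.16 (5.63 to 6.74), or 71.3-fold higher in the library labelled knock (49.6 to 106.7). The lowest knock column was 34.0-fold above the highest control column.

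**Figure D1:**
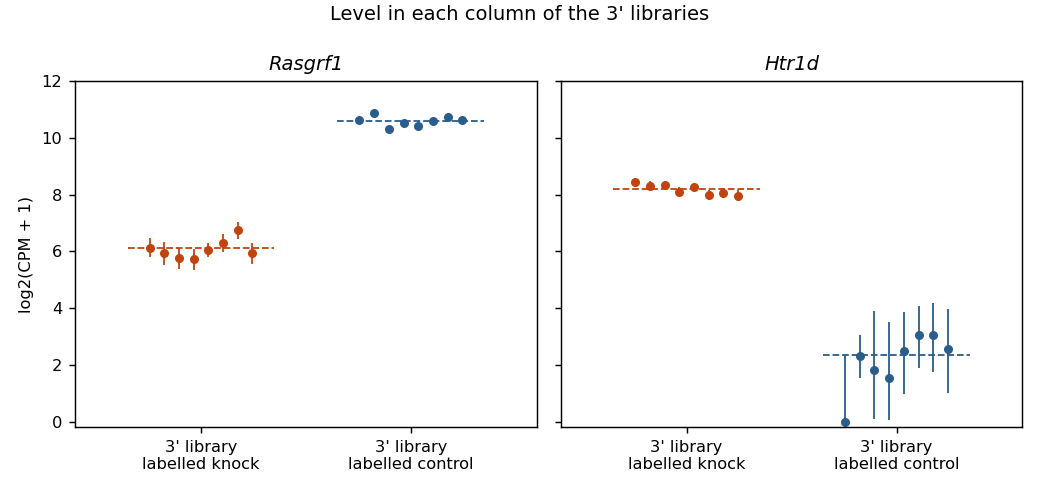
Level of Rasgrf1 and Htr1d in each of the 8 columns of the 3' library labelled knock (left in each panel) and the one labelled control (right), as log2(CPM + 1). Bars are 95% counting intervals and dashed lines the mean of the columns; the columns of the libraries do not overlap for either gene.

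Columns that do not overlap were common in these libraries. Of 2825 genes at 50 CPM or more, 36.3% had all columns of one library above all columns of the other. For both genes the columns of the library where they were high varied more than counting alone gives. The coefficient of variation of Rasgrf1 over the control columns was 12.2%, where counting error gives 3.09%. That of Htr1d over the knock columns was 12.3%, where counting error gives 5.66%. For Htr1d in the control columns it was 62.7%, close to the 60.1% that counting error gives at that level. For Rasgrf1 in the knock columns it was 25.8% against 11.7% from counting, with column 7 the highest.

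Of all genes with a mean of 50 CPM, or above it, a 2-fold or larger excess in the library labelled knock was seen for 13.3%, and a deficit of that size for 4.53%. Htr1d had the highest ratio of the 2825, ahead of the histone gene Hist1h2ao at 5.45. Rasgrf1 was not the lowest, as 2 genes had a lower ratio. The gene model 4930452B06Rik was lower, at a log2 ratio of -6.36. The vomeronasal receptor gene Vmn2r71 was at -4.62 (-4.86 to -4.39), an interval that holds the value of Rasgrf1, and the next above was Chchd10 at -4.01. 4930452B06Rik was named after its values were seen. Over all 2825 the median was 0.14 on the log2 scale.

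**Figure D2:**
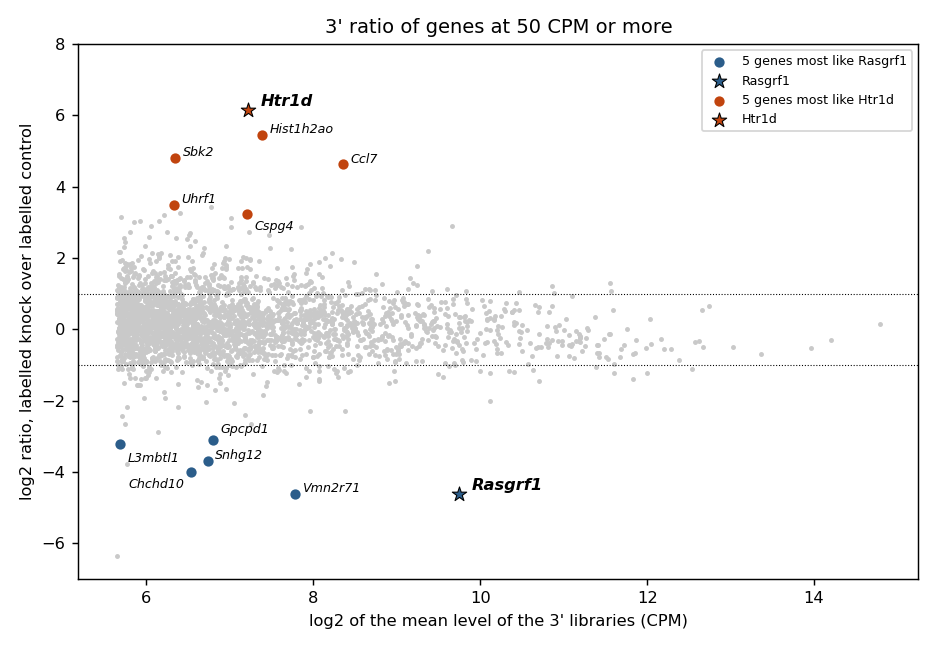
The log2 ratio of the 3' library labelled knock over the one labelled control against the log2 of their mean level, for 2825 genes at 50 CPM or more. Stars are Rasgrf1 (-4.62) and Htr1d (6.16), larger dots the 5 genes most like each over the columns, and dotted lines a 2-fold difference.

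CBTi-seq showed neither gene. The table of 20717 rows, which hold 20716 distinct names, had no row for Rasgrf1 or Htr1d, nor for any of the 10 other names of Rasgrf1 or the 5 of Htr1d that RefSeq lists. Each row that the table does have holds at least 1 count over the 20 columns, so a gene with no row is one for which no count is listed in any column, knock or control. The annotation behind the table is not known here, so no upper limit on the level is drawn from a missing row. Some names in the table had been turned into dates, and neither gene has a name of that kind.

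The depth of CBTi-seq gives the scale. Rasgrf1 at its 3' share would make 235 counts in the CBTi-seq knock columns together, and 6353 in the control columns. In single columns that would be 10.3 to 49.3 counts in the knock columns and 68.4 to 1393 in the control columns. Htr1d at its 3' share would make 1027 counts in the knock columns, 44.8 to 215.4 in each. In the control columns it would make 16 counts in all, and less than 1 in the shallowest. Since Rrm2 goes against the 3' labels, the same was computed with those labels turned. Rasgrf1 would then make 5769 counts in the CBTi-seq knock columns and 259 in the control columns. Htr1d would make 14 in the knock columns and 1130 in the control columns. These figures take a gene to have the same share of counts in both assays, which was not tested.

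A missing row was uncommon for genes at these 3' levels. Of 2566 named coding genes at 50 CPM or more in the 3' libraries, 129 had no CBTi-seq row under their own or a synonymous name, which is 5.03%. Both members are among the 129, Rasgrf1 at a mean 3' level of 856.0 CPM and Htr1d at 148.4 CPM.

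**Figure D3:**
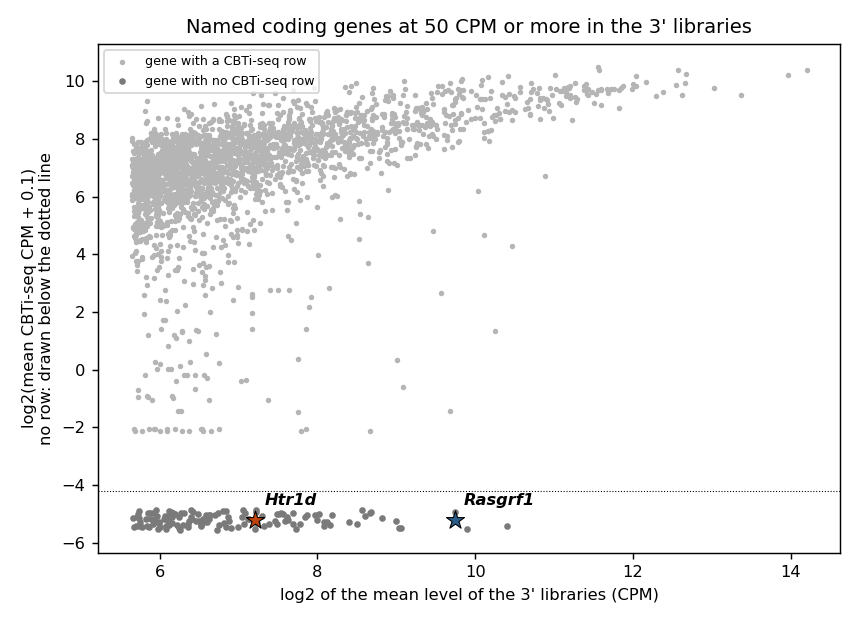
Mean CBTi-seq level of the knock and control columns, as log2(CPM + 0.1), against the log2 of the mean 3' level, for named coding genes at 50 CPM or more in the 3' libraries that have a CBTi-seq row under their own symbol. The 129 genes with no row lie below the dotted line, at a height that has no meaning; Rasgrf1 and Htr1d are the stars among them.

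The genes with no CBTi-seq row were long. Their median annotated span was 278891 bases, against 18853 bases for the 2437 genes with a row. Of those with no row, 66.7% spanned at least as many bases as Rasgrf1, against 11.4% of those with a row. A span as long as that of Htr1d was found in 93.8% of those with no row and 47.1% of those with one. So Rasgrf1 lay among the shorter members of its set and Htr1d among the shortest. The tables do not place 3' counts in exons or introns, and the part that span plays in a missing row was not tested.

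**Figure D4:**
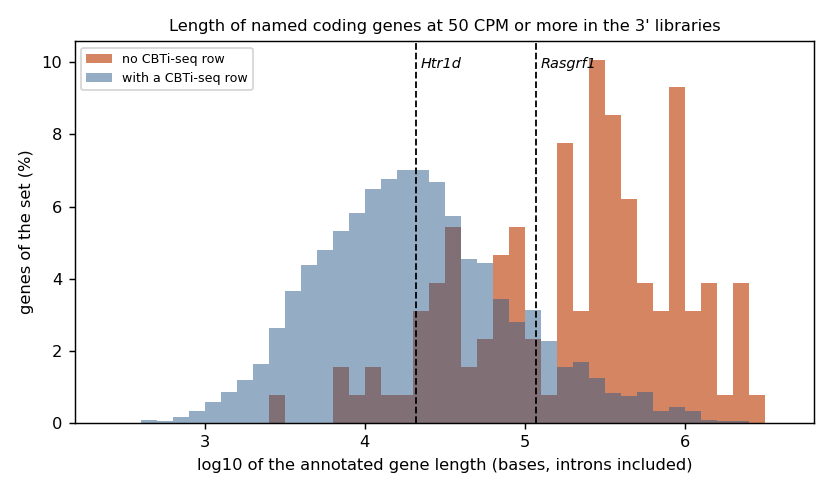
Annotated span of named coding genes at 50 CPM or more in the 3' libraries, on a log10 scale, as the percent of each set: 129 genes with no CBTi-seq row (orange) and 2437 with one (blue). Dashed lines mark Htr1d at 20875 bases and Rasgrf1 at 117070 bases.

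Most genes with no CBTi-seq row were less than 2-fold apart between the 3' libraries, and most were lower in the one labelled knock. Leaving out Rasgrf1 and Htr1d, the middle of the 127 others lay between log2 ratios of -0.65 and -0.16, with a median of -0.44. A 2-fold or larger difference placed 7 of them higher in the library labelled knock and 9 lower. With Rasgrf1 and Htr1d counted, that is 6.20% higher and 7.75% lower of the 129, beside 14.2% higher and 3.90% lower of the 2437 genes with a row. The median log2 ratio of the genes with a row was 0.20. The extremes of the 127 others were Vmn2r71 at -4.62 and the serine protease gene Tmprss9 at 2.89. Tmprss9 was named after its values were seen.

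The genes next to Rasgrf1 did not share its ratio. Of the 3 nearest coding genes on each side, Ctsh, encoding the lysosomal protease cathepsin H, begins 27174 bases after Rasgrf1. It was at 82.1 CPM in the 3' library labelled knock and 41.3 CPM in the one labelled control (log2 ratio 0.99, 0.79 to 1.19). Morf4l1, a chromatin protein gene, had a log2 ratio of 1.01 (0.77 to 1.26), and Adamts7, an extracellular protease gene, of -1.19 (-1.48 to -0.89). On the other side, Tmed3, a cargo receptor gene of the secretory pathway, was at 203.2 CPM in the library labelled knock and 310.7 CPM in the one labelled control (-0.61, -0.70 to -0.52). Ankrd34c had no 3' count, and Minar1 had 0 counts in the library labelled knock and 1 in the one labelled control. Neither of these has a CBTi-seq row.

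The other 4 neighbours of Rasgrf1 were all found by CBTi-seq. Ctsh stood at 65.9 CPM in the knock columns and 43.2 CPM in the control columns, and Tmed3 at 247.5 CPM in the knock columns and 241.3 CPM in the control columns. Morf4l1 was at 162.5 CPM in the knock columns and 185.7 CPM in the control columns, and Adamts7 at 5.70 CPM in the knock columns and 6.73 CPM in the control columns. The 95% interval of the log2 ratio lay above 0 for Ctsh, below 0 for Morf4l1, and held 0 for Tmed3 and Adamts7.

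Around Htr1d, 4 of the 6 neighbours had a higher level in the 3' library labelled knock, by less than Htr1d itself. Genes of these libraries leaned the same way, with a median log2 ratio of 0.14 at a mean of 50 CPM or more. At 20 CPM or more in either library the median was 0.23. Luzp1, a gene of an actin-binding leucine zipper protein that begins 25362 bases after Htr1d, was at 168.1 CPM in the library labelled knock and 84.3 CPM in the one labelled control (log2 ratio 0.995, 0.86 to 1.13). The histone demethylase gene Kdm1a was at 33.1 CPM in the library labelled knock and 5.94 CPM in the one labelled control (2.48, 2.01 to 2.98). The zinc finger gene Zfp46 had 41 counts in the library labelled knock and 4 in the one labelled control (2.98, 1.52 to 4.93). Hnrnpr, an RNA-binding protein gene on the other side, had a log2 ratio of 0.32 (0.13 to 0.51), and Tcea3 of -0.33 (-0.77 to 0.11). The nearest, 6030445D17Rik, had 0 counts in the library labelled knock and 30 in the one labelled control.

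In CBTi-seq all 6 neighbours of Htr1d had a row, and the 95% interval of the log2 ratio held 0 for 5 of them. The exception was 6030445D17Rik, with 18 counts in the knock columns and 8 in the control columns (1.31, 0.04 to 2.72). The log2 ratio was -0.02 (-0.20 to 0.15) for Luzp1 and -0.01 (-0.35 to 0.32) for Kdm1a. Luzp1 stood at 142.9 CPM in the knock columns and 145.0 CPM in the control columns. Htr1d was thus missing from CBTi-seq between neighbours that it counted. For Rasgrf1 the nearest coding gene before it, Ankrd34c, had no row either. The nearest counted one on that side was Tmed3, 204839 bases away.

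**Figure D5:**
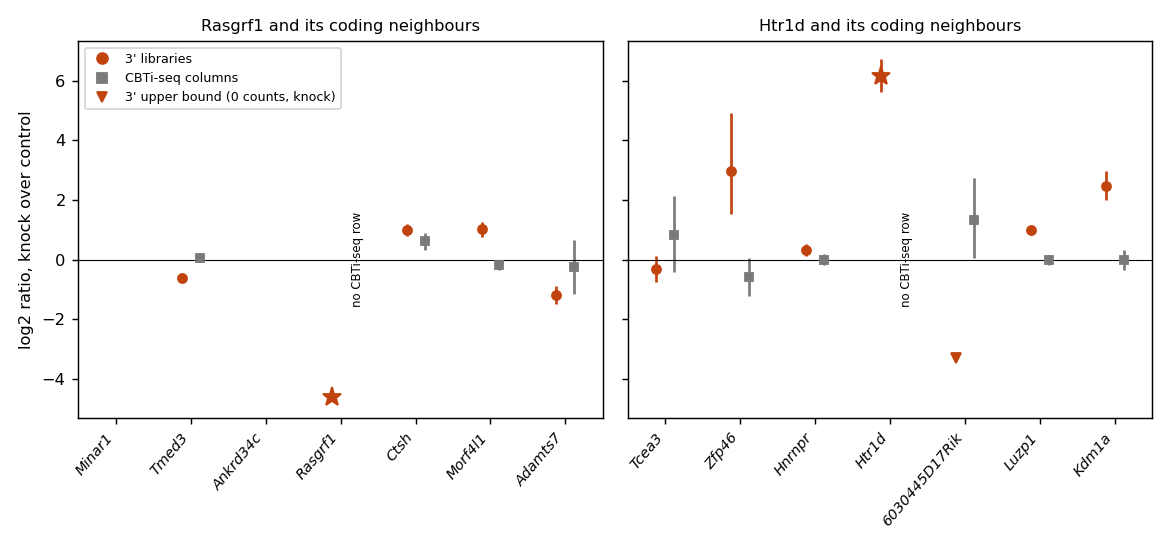
The log2 ratio of knock over control for Rasgrf1, Htr1d and the 3 nearest coding genes on each side, in order along the chromosome, in the 3' libraries (orange) and in CBTi-seq (grey squares), with 95% counting intervals. The triangle is the upper bound of a gene with 0 knock counts; Ankrd34c and Minar1 have no value, and the stars have no CBTi-seq counterpart.

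The genes most like each member were found by the distance between their log2(CPM + 1) values over the 16 columns of the 3' tables, each less its own mean, among 2636 named genes at 50 CPM or more. Since both libraries enter, this measure mostly finds genes with a like ratio. The 5 nearest to Rasgrf1 were Vmn2r71 (distance 1.65), the snoRNA host gene Snhg12 (2.39), the chromatin reader gene L3mbtl1 (3.02), the mitochondrial protein gene Chchd10 (3.10) and the phosphodiesterase gene Gpcpd1 (3.12). Vmn2r71 was at 17.1 CPM in the library labelled knock and 421.9 CPM in the one labelled control.

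CBTi-seq split these 5. Vmn2r71 had no row, and L3mbtl1 had 0 counts in the knock columns and 1 in the control columns. Chchd10 was lower in the knock columns as well, at 11.4 CPM against 67.1 CPM in the control columns (log2 ratio -2.56, -3.07 to -2.07). Snhg12 had a log2 ratio of -0.23 (-0.57 to 0.11), at 37.1 CPM in the knock columns and 43.5 CPM in the control columns. Gpcpd1 was at 27.4 CPM in the knock columns and 17.9 CPM in the control columns (0.62, 0.15 to 1.08).

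The 5 nearest to Htr1d were farther from it than any of those from Rasgrf1. They were the chemokine gene Ccl7 (distance 4.22), the kinase gene Sbk2 (5.14), the histone gene Hist1h2ao (5.36), the epigenetic regulator gene Uhrf1 (6.17) and the proteoglycan gene Cspg4 (6.33). The control columns of Htr1d held only 0 to 10 counts each, and the part of counting error in these distances was not tested. Sbk2 was at 157.3 CPM in the library labelled knock and 5.66 CPM in the one labelled control. In CBTi-seq it had 0 counts in the knock columns and 6 in the control columns. Ccl7 was at 311.9 CPM in the CBTi-seq knock columns and 156.4 CPM in the control columns (log2 ratio 0.996, 0.85 to 1.14). Uhrf1 and Cspg4 had CBTi-seq log2 ratios of 0.07 (-0.10 to 0.24) and -0.29 (-0.47 to -0.12). Hist1h2ao had 28 counts in the knock columns and 21 in the control columns, and it has close copies that the counting may have treated in ways not given here.

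No other exchange factor for Ras on the list reached 20 CPM in a 3' library with a 2-fold difference between them. Listed genes are counted below for an assay where they reach 20 CPM in either of its groups. Of all 6538 genes at that limit, 21.0% had a level 2-fold or more above control in the 3' library labelled knock and 6.78% one 2-fold or more below, with a median log2 ratio of 0.23. Of the other 11 exchange factors for Ras and its relatives, 3 reached the limit, 0 of them 2-fold apart. Among them, Rapgef1 was at 63.0 CPM in the library labelled knock and 50.7 CPM in the one labelled control (log2 ratio 0.31, 0.12 to 0.51). Rasgrf2, the closest relative, had 35 counts in the library labelled knock and 43 in the one labelled control, and it too had no CBTi-seq row. Sos2, a widely expressed exchange factor, had 13 counts in the library labelled knock and 74 in the one labelled control (-2.88, -3.86 to -2.02), below the limit there. Rgl1, an exchange factor for Ral that reached the limit in CBTi-seq but not in the 3' libraries, had a 3' log2 ratio of 1.08 (0.61 to 1.56) and a CBTi-seq ratio of -1.01 (-1.44 to -0.60). Ralgds, another Ral exchange factor, was below the limit in both assays and is named after its values were seen. It had 165 counts in the 3' library labelled knock and 28 in the one labelled control (log2 ratio 2.18). In CBTi-seq 6 of the 11 reached the limit. Rgl1 was the 1 of them 2-fold or more lower in the knock columns, as were 3.49% of all genes at the limit there. Rasgrp4 was at 29.7 CPM in the CBTi-seq knock columns and 21.8 CPM in the control columns. It had 5 counts in the 3' library labelled knock and 0 in the one labelled control.

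The Ras GTPases, among them the proteins that RASGRF1 acts on, were read at the same limit. Of 6 Ras GTPase genes 4 reached the limit, 3 of them 2-fold or more above control in the library labelled knock, with a median log2 ratio of 1.33. Hras was at 116.5 CPM in the library labelled knock and 47.0 CPM in the one labelled control (1.31, 1.13 to 1.49), and Rras had a ratio of 1.35 (1.07 to 1.64). Nras, named after its values were seen, was the one at the limit that was not 2-fold apart, at 141.1 CPM in the library labelled knock and 112.5 CPM in the one labelled control (log2 ratio 0.33). In CBTi-seq the Ras GTPase genes had a median of 0.17 with 0 of 5 at least 2-fold apart. There, 0.818% of 8804 genes at the limit had a level in the knock columns 2-fold or more above control and 3.49% one 2-fold or more below, with a median of -0.06.

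Downstream of Ras, the lists differed in how many genes passed 2-fold in the 3' libraries, which was not tested. Of 8 Raf, MEK and ERK kinase genes 6 reached the limit, and 1 was at least 2-fold higher, Araf at 1.11 (0.83 to 1.39). Their median was 0.10. Of 15 feedback and target genes of ERK 6 reached it, 4 were 2-fold higher and the median was 1.16. Etv5, a transcription factor gene, was at 30.5 CPM in the library labelled knock and 7.499 CPM in the one labelled control (2.02, 1.59 to 2.47). In CBTi-seq the 14 measured ERK targets had a median of -0.34, with 0 at least 2-fold higher and 1 lower. Etv5 was at 57.3 CPM in the knock columns and 91.9 CPM in the control columns there (-0.68, -0.94 to -0.43). Fosl1, also of this list, had a 3' log2 ratio of 2.45 (1.85 to 3.10) and a CBTi-seq ratio of -0.01 (-0.12 to 0.11). Of 9 genes of Ras-inactivating proteins 4 reached the limit in the 3' libraries. Rasa3 was the one past 2-fold, with 275 counts in the library labelled knock and 2 in the one labelled control (6.73, 4.86 to 9.78). In CBTi-seq Rasa3 was at 25.9 CPM in the knock columns and 42.7 CPM in the control columns.

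Htr1d was the only serotonin receptor gene of 14 that reached 20 CPM in a 3' library. Of the other 13, 8 had no 3' count, among them its closest relative Htr1b. The other 5 stayed below 8 CPM, the highest being Htr4 at 7.53 CPM in the library labelled knock and 6.51 CPM in the one labelled control. In CBTi-seq, Htr2b and Htr5b alone had a row, with 5 and 8 counts in the knock columns and none in the control columns. None of 8 genes of serotonin synthesis, transport and breakdown reached 20 CPM in a 3' library. Maoa, which breaks serotonin down, had 63 counts in the library labelled knock and 114 in the one labelled control (-1.23, -1.70 to -0.77). Its CBTi-seq ratio was -0.10 (-0.41 to 0.22).

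Some signalling partners of such a receptor were counted in each assay. Of 12 genes of inhibitory G alpha subunits and their regulators 4 had no 3' count and 5 reached the limit in the 3' libraries, 2 were at least 2-fold higher and the median was 0.68. Gnai2, an inhibitory alpha subunit gene, was at 314.4 CPM in the library labelled knock and 121.4 CPM in the one labelled control (1.37, 1.26 to 1.48). In CBTi-seq it was at 412.6 CPM in the knock columns and 423.4 CPM in the control columns. Gpsm2, a regulator gene of the list and the other past 2-fold, had a 3' log2 ratio of 1.93 (1.59 to 2.29). It was higher in the CBTi-seq knock columns as well (0.72, 0.51 to 0.93). In CBTi-seq 4 of the 12 reached the limit, with 0 at least 2-fold apart and a median of -0.02. Of 9 adenylyl cyclase genes, a family of which these subunits inhibit only some members, Adcy7 alone reached the 3' limit. It was at 46.9 CPM in the library labelled knock and 30.6 CPM in the one labelled control (0.62, 0.38 to 0.86). Its columns overlapped, at 24.0 to 83.1 CPM labelled knock and 0 to 106.7 CPM labelled control. Adcy6, below the limit in the 3' libraries, went the other way there (-1.70, -2.48 to -0.96). In CBTi-seq Adcy7 was below the limit, with 11 counts in the knock columns and 31 in the control columns (-1.36, -2.50 to -0.32). Adcy6 alone reached the limit there, at 16.3 CPM in the knock columns and 30.6 CPM in the control columns (-0.91, -1.39 to -0.44).

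The summed markers of fibroblasts were present in every column and differed between the 3' libraries. Of 16 markers 14 had a 3' count and 7 reached 20 CPM in a 3' library. The summed level was 3086 to 3325 CPM over the columns labelled knock and 1695 to 1974 CPM over those labelled control. Vim alone was at 1169 CPM in the library labelled knock and 644.1 CPM in the one labelled control. In CBTi-seq 11 of the 16 had a row. Their summed level was 2085 to 3417 CPM over the knock columns and 2192 to 3776 CPM over the control columns. Fap and Postn were at 0 in the 3' libraries. Rasgrf1 and Htr1d are best known from neurons. The summed level of 15 neuron markers was 150.5 to 230.6 CPM over the columns labelled knock and 150.2 to 246.6 CPM over those labelled control, most of it from Camk2a. Of the 15 neuron markers, 9 had a 3' count, while Snap25, Tubb3, Nefl, Gad1, Slc17a7 and Elavl3 had none. Syt1 was at 29.5 CPM in the library labelled knock and 37.5 CPM in the one labelled control, with no CBTi-seq row. In CBTi-seq 4 of 15 neuron markers had a row, at no more than 17.4 CPM together in a knock column and 14.6 CPM in a control column. Summed markers of leukocytes (136.4 to 189.6 CPM labelled knock, 65.5 to 120.2 CPM labelled control) came mostly from Cd68, and Ptprc was at 0. Those of epithelium (96.8 to 180.9 CPM labelled knock, 139.0 to 251.6 CPM labelled control) came mostly from Cdh1, and Krt18 was at 0. Those of endothelium were at 25.1 to 52.8 CPM labelled knock and 23.4 to 45.4 CPM labelled control. The part of any other cells in the ratios of Rasgrf1 and Htr1d was not tested.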

How the data were processed

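The deposited values are raw counts, 1 per gene in each column: 1 CBTi-seq table by gene symbol, whose name refers to UMIs, and 2 tables of 3' libraries by Ensembl ID. FastQC, Picard and STAR 2.7.11b, as well as GRCm38 and GRCh38 among builds, appear with no role in the submitters' processing notes. How genes were counted, by strand or not, and as reads or molecules in the 3' libraries, is not stated in those notes. IDs were matched to GENCODE vM21 (55141 of 55402). The rest made up 0.0329% of the counts labelled knock and 0.0194% of those labelled control. Coordinates are 1-based in GRCm38, and promoter sequences are from RefSeq (GRCm38.p6).

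Counts were summed over columns and scaled to the total of all counts (CPM). Levels have exact Poisson intervals, and ratios exact conditional (Clopper-Pearson) intervals, at 95%. For genes with fewer than 3 counts in a library, 3 counts were put in place of the count in medians and calls. A gene counted as called at a log2 ratio of 1 in size. With 1 sample per group there was no test and no p-value. The ratio calculation was tested on simulated data. For missing rows, names that spreadsheets turn into dates were left out; the CBTi-seq table holds 21 such names, with 0.206% of its counts. Of these, 1 stood on 2 rows, which were summed.

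Rasgrf1 and Htr1d, the 14 gene lists and the rules below were chosen with earlier results of these data known. Genes were named if they were among the 3 nearest coding genes on each side, the 5 genes of most like profile, or up to 4 per list by size of the 3' ratio; any others are said to be so or belong to a member's family or a marker list. Alternatives used edgeR 4.0.16 and DESeq2 1.42.0 for scaling factors only, in R 4.3.3. Intervals came from scipy 1.17.1, tables from pandas 2.3.3 and numpy 2.4.6, and plots from matplotlib 3.10.9, under Python 3.11.15.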

Additional observations from a re-analysis of the deposited data

How the results depend on the processing

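Every setting tried kept the direction of both 3' ratios. The log2 ratio of Rasgrf1 was -4.77 with TMM factors, -4.77 with median-of-ratios factors, -4.75 when mitochondrial and ribosomal protein genes were left out of totals, and -4.76 with each column thinned to 50000 counts. Leaving out each column in turn gave -4.71 to -4.50 for Rasgrf1 and 5.96 to 6.31 for Htr1d. Equal weight per column gave -4.51 and 6.16. For Htr1d the scalings gave 6.00 to 6.03, and thinning gave 4.70, from 104 counts in the library labelled knock and 4 in the one labelled control, where 2 of 8 columns then held a count. The median log2 ratio of all genes at 50 CPM or more moved by -0.16 with TMM factors and -0.17 with median-of-ratios factors. It moved by -0.13 when mitochondrial and ribosomal protein genes were left out of totals, where more genes, 3481, reached that limit.

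Of genes at least 2-fold apart, 376 had the higher and 128 the lower level in the library labelled knock, so 74.6% were higher. Higher and lower counts were 985 and 324 at 20 CPM, 175 and 79 at 100 CPM, and 4220 and 2322 with no limit beyond 1 count. They were 269 and 206 with TMM factors (56.6% higher) and 269 and 208 with median-of-ratios factors (56.4%). With mitochondrial and ribosomal protein genes left out of the totals they were 382 and 247 (60.7%). That setting kept those genes among the genes called and raised every CPM value, so 3481 genes reached 50 CPM in place of 2825. The share of coding genes with no CBTi-seq row was 5.92% at 20 CPM and 4.62% at 100 CPM, limits that were added after the data were seen. No scaling gives a CBTi-seq value for genes with no row, so the other alternatives planned for that assay were not run. No paired analysis was possible because each group is 1 sample and the columns carry no pairing.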
